A study of Bos taurus with 23 samples.

Results

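Long culture of WJ cells, primary mesenchymal stem cells from bovine umbilical cord, was examined in 6 of the 23 libraries of the series. The 50-day group was the 3 primary libraries with WJ in their names, and the 12-day group was the 3 primary libraries sampled at that time. Both groups came from Holstein cattle, were not transfected, and were kept in DMEM of low glucose that held fetal bovine serum, glutamine and antibiotics. The names of the WJ libraries carry P10, P15 and P18, and the last also carries F. The 12-day libraries are named P3_BUC_Mix, P3_WJ and P4_WJ_Male, here replicates 1, 2 and 3, so replicate 1 is the only one not named WJ. The remaining libraries are 3 of 50-day BUC primary cells and 14 of a line made from WJ cells with the SV40 large T antigen. RNA was profiled by bulk MARS-Seq, which counts poly(A) transcripts at their 3′ ends.

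Mesenchymal stem cells in primary culture divide a limited number of times. With passaging such cells are known to enlarge, slow their division and lose part of their capacity to form bone, fat and cartilage, a course called replicative senescence. The large T antigen, used for the line, is known to bypass it by blocking p53 and the retinoblastoma protein.

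The 16094 genes carry Ensembl numbers alone, and the reference table used here lists no Ensembl numbers to look up symbols with. Hence the cell type label was not checked against its markers, no pathway was counted, and genes are described by level, direction and pattern. Total counts were 8954270 to 15486372 in the 12-day libraries and 1840606 to 3980920 in the WJ libraries, so depth and time ran together. The P number also ran with time, at 3 or 4 against 10 to 18, and its part cannot be told apart from that of days in culture. The labels do not tell whether the libraries of a group were separate cultures or animals. The p-values thus speak only for the spread among these libraries, part of which may be technical. Some names carry Mix, Male or F, and what these tags stand for is not stated. Any difference of donor or sex between the groups cannot be told apart from time. Rose and fell here mean higher and lower in the later libraries. In bulk RNA, fewer cells of a type and less RNA per cell cannot be told apart.

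The 12-day cells formed a tight group from which the WJ cells had moved away by 50 days. After all libraries were thinned to 1840606 counts, 6820 genes with a mean of at least 10 CPM, counts scaled to the same library total, were compared between libraries. Any pair of 12-day libraries differed at least 2-fold in 42 to 53 of these genes, or 0.616% to 0.777%. Replicate 1, named BUC, differed in 47 and 42 genes from the 12-day WJ libraries, which differed from each other in 53. By this count replicate 1 thus differed from the 12-day WJ libraries no more than these did from each other. A single library cannot show that BUC and WJ cells were alike at 12 days. The WJ libraries at 50 days differed from each other in 186 to 275 genes, and from the 12-day libraries in 1234 to 1587, or 18.1% to 23.3%. The biological coefficient of variation, the spread beyond counting noise, was 6.88% at 12 days and 16% in WJ at 50 days. Each group was fitted alone, over 10093 and 7612 genes, so the 2 values do not cover the same genes.

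**Figure D1:**
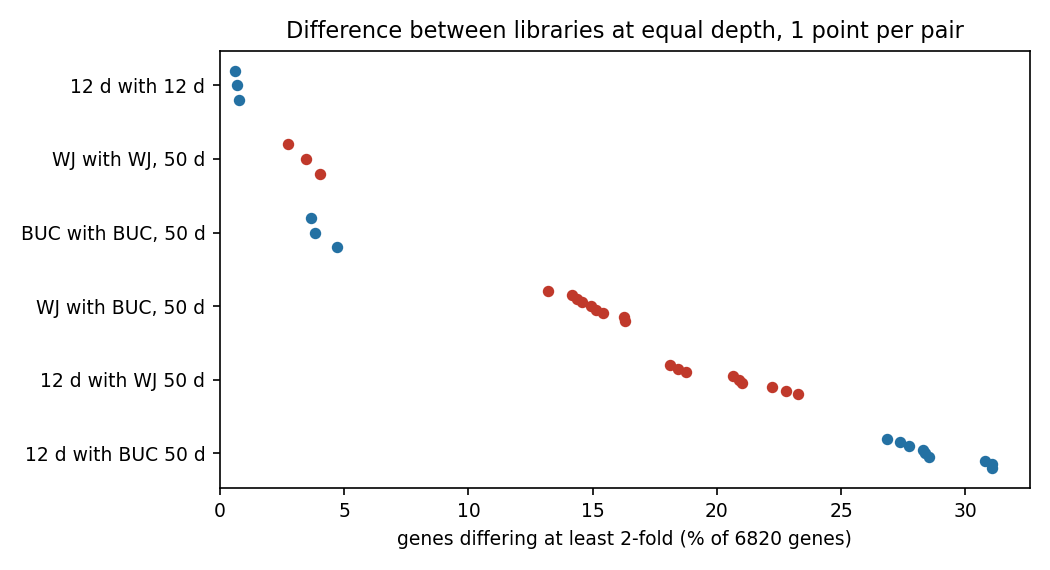
The percentage of 6820 genes that differed at least 2-fold (horizontal axis) is plotted with 1 point for each pair of libraries, grouped by kind of pair, with pairs that include a 50-day WJ library in red. Pairs of 12-day libraries lie below 1%, WJ pairs at 50 days lie at 2.73% to 4.03%, and pairs across the 2 times lie at 18.1% or above.

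From 12 to 50 days, 2634 genes rose and 2635 fell in WJ cells, 53.1% of the 9930 genes tested (edgeR quasi-likelihood test, Benjamini-Hochberg adjusted p under 0.05). Of all genes tested, 26.5% rose and 26.5% fell. Most changes were modest. Rising genes had a median log2 fold change of 0.89 and falling genes one of -0.79, against -0.01 over all genes tested. Changes under 1.5-fold made up 711 of the rising and 772 of the falling genes. At least 2-fold changes were found in 1163 rising and 944 falling genes, at least 4-fold in 417 and 283, and at least 8-fold in 199 and 147. The 4-fold counts were 658 and 428 with no low-count filter, 628 genes rose so far with DESeq2, and 175 fell so far on counts thinned to equal depth. All 3 WJ libraries lay above all 3 12-day libraries in 2931 genes, 29.5% of those tested. They lay below them in 3128 genes, 31.5%, so that 61% of genes had groups apart. The groups overlapped in 145 of the 5269 called genes.

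**Figure D2:**
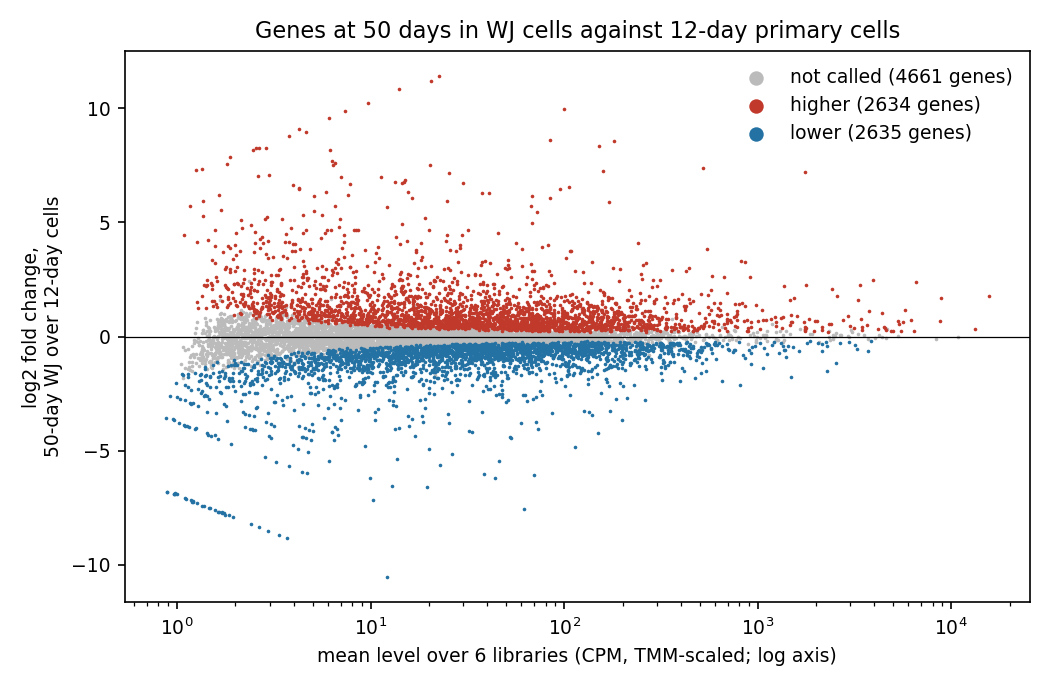
Each point is a gene, with its mean level over the 6 libraries in CPM on a log axis and its log2 fold change of 50-day WJ over 12-day cells, coloured by the call. Rising genes (2634) and falling genes (2635) are found at every level, and sets of points on slanted lines at the lower left are genes with no count in 1 group, whose fold change depends on the prior count.

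The balance of rise and fall depended on the scale. With library totals in place of TMM scaling, which sets the bulk of genes to no change, 1909 genes rose and 3552 fell, and the fold changes of all genes moved by a median of -0.19. All directions here are therefore relative to the TMM scale. In a single fit of all 23 libraries 1701 genes rose and 2350 fell, with a median move of -0.11.

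The result held without the 12-day library named BUC. With only the WJ libraries at 12 days, 2248 genes rose and 2198 fell, 46.9% of those tested. Of the genes called with all 6 libraries, 83.9% of the rising and 82.7% of the falling ones kept their call, and 0 changed direction. Leaving out either 12-day WJ library had a like effect. Without replicate 2 the calls kept were 2163 rising and 2154 falling, without replicate 3 they were 2255 and 2158, and without replicate 1 they were 2209 and 2180.

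**Figure D3:**
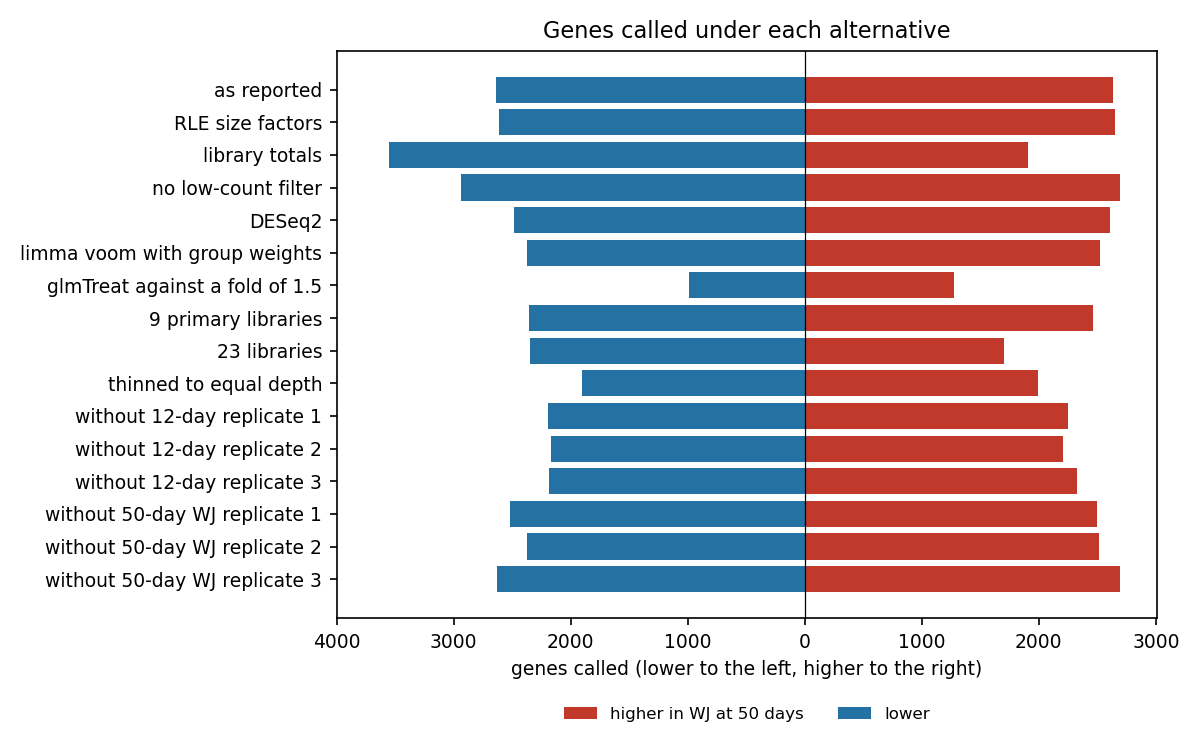
Bars give the number of genes called higher (right) and lower (left) in 50-day WJ cells under the reported test and each alternative. Leaving out any 1 library left 2208 to 2693 genes rising and 2173 to 2629 falling, while the scale by library totals tilted the balance to 1909 rising and 3552 falling.

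The changes shifted a large part of the transcript pool. Genes that rose held 32.7% ± 0.0639 (SD, n = 3) of all counts at 12 days and 52% ± 1.78 (SD, n = 3) in WJ at 50 days. Genes that fell held 32.5% ± 0.158 (SD, n = 3) and 17.5% ± 1.03 (SD, n = 3). These shares describe genes chosen for their change and carry no test. The pool was also more concentrated in the WJ libraries, on counts at full depth. Among them the share was highest in P18, which has the fewest counts, but among the BUC libraries it was highest in the deepest one. The part of depth in this measure was not tested. The share of a library's counts in its 100 most abundant genes was 32.2% to 33.8% at 12 days and 36.8% to 40.1% in WJ at 50 days, with no overlap (two-sided exact permutation p = 0.1, which is the lowest value possible with 20 splits). At equal depth, 11677 to 11729 genes had a count at 12 days and 11510 to 11552 in WJ at 50 days (two-sided exact permutation p = 0.1, adjusted p = 0.1 over these 2 measures).

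The most abundant transcripts were counted apart. When genes were ranked by their mean level over the 6 libraries, 55 of the top 100 rose and 17 fell. Over all 100 the median log2 fold change was 0.28. This ranking includes the 50-day level, so a gene can enter the 100 through its rise. Ranked by the 12-day mean 42 rose and 27 fell, and ranked by the mean of the line, which shares no library, 43 rose and 23 fell, both chosen after the data were seen. In the first ranking the count of rising genes was 35 with library totals, where 25 fell, and 23 in the fit of 23 libraries, where 12 fell. Of the next 900 genes 332 rose and 291 fell, and of the 8930 below them 2247 rose and 2327 fell, with medians of 0.03 and -0.02. The 17 abundant genes that fell did so by log2 values of -1.49 to -0.21. Of the 100, 66 stayed within 1.5-fold.

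There were 6 of these 100 genes that rose at least 4-fold. Of them 1 stood out. Its level was 22.5 to 24.1 CPM in the 12-day libraries and 3455 to 3480 CPM in the WJ libraries at 50 days. Its log2 fold change was 7.22 (edgeR adjusted p = 6.53e-11). The WJ libraries were as close to each other as the 12-day ones. It was also higher in WJ than in BUC cells at 50 days, by a log2 value of 7.89 (edgeR adjusted p = 8.48e-12). The other 5 rose by log2 values of 2.07 to 2.5, to means between 2950 and 11079 CPM. Against BUC at 50 days they differed by log2 values of -1.09 to 1.14, and 3 of the 5 passed that test. These 6 genes were looked at after their values were seen, and they lie outside the naming rule.

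The 4 genes named here had the largest folds in either direction among genes with at least 10 CPM in the higher group, groups that did not overlap, and the same call without replicate 1 at 12 days. ENSBTAG00000021565 had 0 counts in each 12-day library and 141, 123 and 72 counts in the P10, P15 and P18 libraries, at 36.9, 54 and 43.7 CPM. It was thus absent from the counts at 12 days and evenly present in the WJ libraries. Its level was higher at 50 days (edgeR adjusted p = 4.38e-07 with all libraries). With 3 counts over the pooled 12-day total as the floor, the ratio of WJ over 12-day cells was 487. It was 277 without replicate 3 at 12 days, the deepest library. The ratio at the floor leaves out counting error at 50 days. With that error included, the exact 95% interval of the pooled ratio started at 394.

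ENSBTAG00000021565 was also found in BUC cells at 50 days, at a higher level. On a scale common to all 23 libraries it stood at 47.4 ± 8.19 CPM (SD, n = 3) in WJ and 145.6 ± 44.4 CPM (SD, n = 3) in BUC at 50 days. The log2 difference of WJ from BUC was -1.62 in the fit of 9 primary libraries (edgeR adjusted p = 0.000888), with all 3 WJ below all 3 BUC libraries. In the 14 libraries of the line it had 3 counts in all. The gene was thus near 0 in both the young primary cells and the line.

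ENSBTAG00000027516 also had 0 counts in each 12-day library. It had 19, 156 and 81 counts in the P10, P15 and P18 libraries, at 4.97, 68.5 and 49.2 CPM. The P10 library was far below the other two although it was the deepest of the WJ libraries. The level was higher at 50 days (edgeR adjusted p = 0.000604). With all libraries the ratio at the floor was 371, and the exact 95% interval of the pooled ratio started at 300. The ratio at the floor was 664 without the P10 library, 205 without the P15 library, and 211 without replicate 3 at 12 days.

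ENSBTAG00000027516 had 0 counts in each of the 3 BUC libraries at 50 days as well. WJ and BUC differed there (edgeR adjusted p = 0.0042). In the line, whose libraries are tagged AM or FBS at 21 days, it was present in part. At 165 days it had 58, 62 and 38 counts in replicates 3, 4 and 5 and 0 in replicates 1 and 2. At 21 days there were 6 counts in the 5 AM libraries, with at least 1 in each, and 0 in the 4 FBS libraries. The gene was thus seen in WJ cells at 50 days and in part of the line made from WJ cells.

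ENSBTAG00000010610 fell from 28, 22 and 23 CPM in the 12-day libraries, with 263, 272 and 383 counts, to 0 counts in each WJ library at 50 days. Its level was thus lower at 50 days (edgeR adjusted p = 4.73e-06). With the floor of 3 counts over the pooled WJ total, the ratio of 12-day over WJ cells was 70.4. The exact 95% interval of the pooled ratio started at 57.1. The ratio at the floor was 36.4 without the P10 library, which holds the most counts. In the 3 BUC libraries at 50 days there were 2, 3 and 0 counts, and the difference from WJ did not pass the test (log2 -4.44, edgeR adjusted p = 0.143), with a wide error at such counts. On the scale common to 23 libraries, on which the 12-day libraries held 26.4 to 32.1 CPM, the gene stood in the line at 3.68 to 4.53 CPM in the 5 AM libraries and 3.48 to 7.82 CPM in the 4 FBS libraries at 21 days, and at 0.549 to 2 CPM in the 5 libraries at 165 days.

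ENSBTAG00000026461 stood at 119, 122 and 130 CPM in the 12-day libraries and at 0.523, 0.878 and 0.607 CPM in the P10, P15 and P18 libraries, with 2, 2 and 1 counts. Its log2 fold change was -7.55 ± 0.2 (standard error; edgeR adjusted p = 1.1e-08). The pooled ratio of 12-day over WJ cells was 221, and counting error alone gives it an exact 95% interval of 94.5 to 680. On the scale common to 23 libraries it was at 137 to 157 CPM at 12 days, 0.577 to 0.919 CPM in WJ and 39.1 ± 5.29 CPM (SD, n = 3) in BUC at 50 days. WJ lay below BUC by a log2 value of -5.79 (edgeR adjusted p = 5.88e-08). On the same scale the line lay between WJ and BUC, at 4.29 to 6.31 CPM in AM and 1.56 to 6.96 CPM in FBS libraries at 21 days, and at 9 to 30.9 CPM at 165 days.

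**Figure D4:**
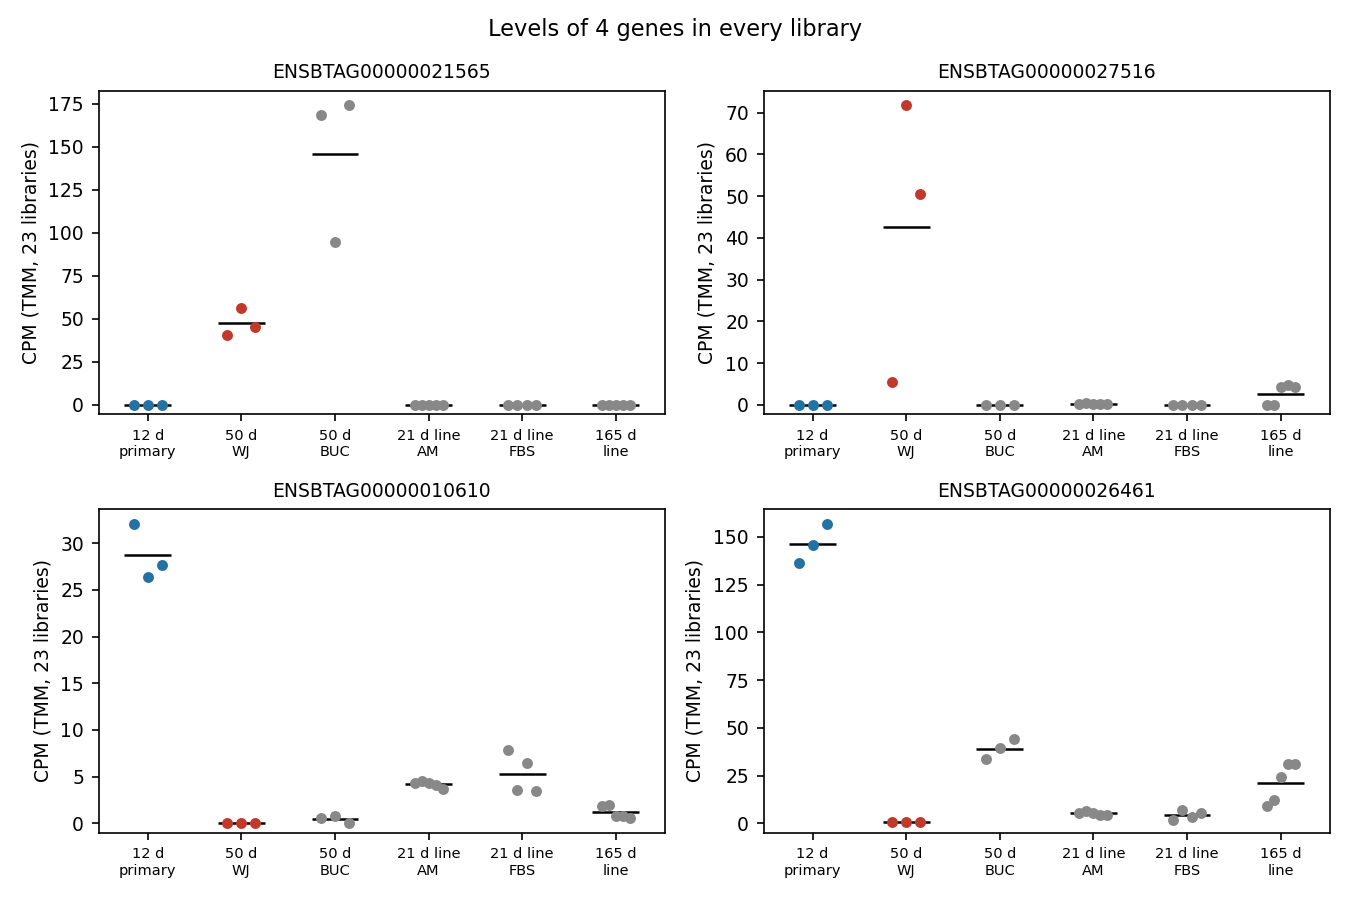
CPM of the 4 named genes, scaled by TMM over 23 libraries, is shown with 1 point per library and a line at each group mean. The 12-day libraries (blue) and the WJ libraries at 50 days (red) do not overlap in any of the 4, and ENSBTAG00000027516 is at 5.48 CPM in the P10 library against 50.6 and 71.7 CPM in the other WJ libraries.

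Genes that went from no count to a clear level were few. There were 12 genes that had a mean of 5 CPM or more in WJ at 50 days and no count in the 3 12-day libraries. A level of 0.0837 CPM is the upper limit that 0 of 35838241 counts allows there. Of these, 6 reached 5 CPM in each WJ library, and the highest mean was 44.9 CPM. In BUC cells at 50 days 9 of the 12 had a count and 5 reached a mean of 5 CPM. None of the 12 did so in the line, by the mean over all 14 of its libraries. These levels in BUC and the line used unscaled totals, unlike those in WJ. The opposite pattern was found in 6 genes, with up to 24.3 CPM at 12 days, where the 8243034 WJ counts allow up to 0.364 CPM. Of the 6, 1 owed its level to replicate 1 at 12 days alone, with 275 counts there and 0 in the 12-day WJ libraries. The opposite pattern was found in 15 genes without the P10 library.

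Many of the large changes were from or to a very low level, which the choice of genes by fold favours. The share of such low levels among all genes tested was not counted. Of the 417 genes that rose at least 4-fold, 169 were below 1 CPM at 12 days, and of the 283 that fell so far, 157 were below 1 CPM in WJ at 50 days. The mean of the higher group was 100 CPM or more in 75 rising and 34 falling genes. Of the 262 such rising genes with at least 10 CPM at 50 days, 15 differed at least 4-fold among the WJ libraries, like ENSBTAG00000027516, and 73 at least 2-fold.

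The P10 library lay nearest to the 12-day cells, while P15 and P18 were not in the order of their numbers. The P10 library differed at least 2-fold from the 12-day libraries in 18.1% to 18.7% of genes, P15 in 22.2% to 23.3% and P18 in 20.7% to 21%. Over the 2634 rising genes the median log2 difference from the 12-day mean was 0.82 in P10, 0.94 in P15 and 0.88 in P18. Over the 2635 falling genes it was -0.73, -0.85 and -0.81. These medians describe genes chosen from the same libraries and carry no test.

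The same values were also counted gene by gene, in genes chosen from the same libraries, which is not separate evidence. P10 was the highest of the WJ libraries in 21.8% of the rising and 43.4% of the falling genes, against 31.3% of all genes tested. A steady rise over P10, P15 and P18 was found in 21% of the rising genes and a steady fall in 22.7% of the falling genes. Over all genes tested these shares were 16.5% and 17.1%. On counts thinned to equal depth P10 was the highest in 25.7% of the rising and 42.7% of the falling genes. Each P number has 1 library, all 3 are labelled 50 days, and depth fell from P10 to P18, so no trend was tested.

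**Figure D5:**
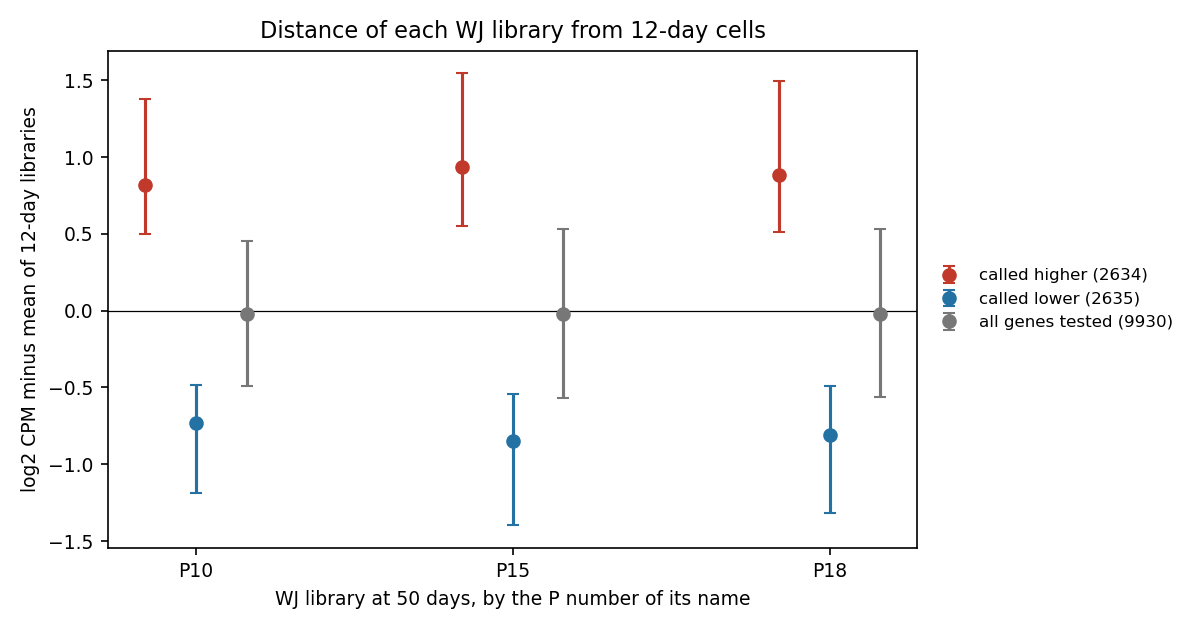
For each WJ library at 50 days, points give the median difference in log2 CPM from the mean of the 12-day libraries and bars run from the lower to the upper quartile over genes, for rising genes (red), falling genes (blue) and all genes tested (grey). The P10 medians, 0.82 and -0.73, lie closer to 0 than those of P15, 0.94 and -0.85.

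WJ and BUC cells were compared with each other by their levels at 50 days. Among the 12-day libraries a single one is named BUC. A standing difference between WJ and BUC therefore cannot be told apart from a different change over time. They differed in 31.5% of the 9820 genes tested in the 9 primary libraries. The WJ level was higher in 14.5% and lower in 17% of them. Among genes that rose in WJ, 519 were higher in WJ than in BUC, 554 were lower, and 1533 did not pass the test. Among genes that fell in WJ, 453 were lower in WJ than in BUC, 395 were higher, and 1742 did not pass. Of the 417 genes that rose at least 4-fold, 125 were higher in WJ than in BUC and 123 were lower. Of the 283 that fell at least 4-fold, 103 were lower in WJ and 20 were higher. These counts share the WJ libraries with the choice of the genes, and so do not stand as independent evidence. Libraries of WJ and BUC differed at least 2-fold in 13.2% to 16.3% of genes, and those of BUC and the 12-day cells in 26.8% to 31.1%.

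The line shares no library with these 6 and served as a separate measure of genes chosen in WJ. From 21 to 165 days 59.6% of the 10744 genes tested in the line changed, with 28.2% rising and 31.4% falling. Of the 2532 genes that rose in WJ and were tested in the line, 35.3% rose there and 25.5% fell. Of the 2551 that fell in WJ, 29.3% rose and 35.4% fell. Over all 9647 genes tested in both, 29.4% rose and 32.3% fell in the line. For the genes that rose in WJ the balance of rise and fall in the line turned round with the scale, as the balance of all genes moved too. With the line scaled by library totals, 560 of the genes that rose in WJ rose there and 944 fell, and of those that fell in WJ 435 rose and 1202 fell. On that scale 16.7% of all 10744 genes tested in the line rose and 43.3% fell. More of the genes that rose in WJ than of those that fell in WJ still rose in the line, and fewer fell.

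Abundance moved with both. Of the 100 most abundant genes 60% rose in the line, with 58.2% among those that rose in WJ and 76.5% among the 17 that fell. Of the next 900 genes 47.4% rose and 24.6% fell in the line. In that set 56.3% of those that rose in WJ rose in the line and 16.9% fell, while of those that fell in WJ 37.5% rose and 33.7% fell. Among the 8647 genes below them, 31.5% of those that rose in WJ rose in the line, against 27.2% of all. In that set 35.8% of those that fell in WJ fell in the line, against 33.4% of all. The 165-day libraries also carry the tag 2D, and time in the line cannot be told apart from what that tag stands for.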

How the data were processed

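Bulk MARS-Seq single reads came from an Illumina NovaSeq, per the labels' protocols. The submitters' processing notes name cutadapt, STAR, HTSeq and DESeq and the build ARS-UCD1.2. Their versions, the annotation, strand use and treatment of molecular identifiers are not stated there. As deposited, the table holds raw counts per gene in 23 columns, each matched to a sample by its title. Overlapping genes, antisense genes and near-identical copies may share counts, and intervals and floors cover counting error only.

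The main fit used 6 libraries, with edgeR 4.0.16 in R 4.3.3, TMM scaling, filterByExpr and Benjamini-Hochberg adjustment over all 9930 genes tested. WJ against BUC used the 9 primary libraries, and the line its 14 libraries, a comparison added later. CPM used TMM-scaled totals, apart from the unscaled levels in BUC and the line of genes with no count at 12 days. Log2 CPM used a prior count of 2, and pooled ratios used unscaled totals. The fold changes of the edgeR fits used the default prior count of edgeR, which is smaller. The 39 gene lists planned by symbol could not be run, so the rule for named genes fell back on 2 rising and 2 falling IDs. Library measures were tested by exact permutation. Alternatives included DESeq2 1.42.0, limma 3.58.1 voom with group weights, other scalings, no filter, thinned counts and leaving out each library. Each tool was run on simulated data with far fewer changed genes than were called here. The outcome is not given, so it does not speak for these calls. Pairs of the 6 libraries had a chi-square of at least 4.2 per degree of freedom, so each was counted once. The libraries, lists and tests were chosen with earlier results of these data known.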

Additional observations from a re-analysis of the deposited data

Results flagged for a closer look

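The level in WJ cells differed from that in BUC cells in 3 of the 4 named genes, by the edgeR test at 50 days. Of all 9820 genes tested, 31.5% passed that test. The 4 genes were chosen for extreme changes in the same WJ libraries, so the count of 3 is not independent of the choice. With a single 12-day library named BUC, a different change over time was not tested. The log2 difference was -1.62 for ENSBTAG00000021565, where both lay above the 12-day cells and BUC lay further above. It was 11 for ENSBTAG00000027516, where BUC had no count, so that the size depends on the prior count. It was -5.79 for ENSBTAG00000026461, where both lay below the 12-day cells and WJ lay further below.

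Single libraries of the line stood apart in ENSBTAG00000021565, each by 1 count where the others of the group had 0. These were replicate 4 of the 165-day line at 0.0773 CPM, replicate 4 of the AM libraries at 0.129 CPM and replicate 2 of the FBS libraries at 0.0703 CPM. Chance gives such a gap in about 1 in 20 groups of continuous values, and more often where counts are 0 or 1, as here.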

How the results depend on the processing

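The direction of the fold change of the 4 named genes and their calls held under every alternative in which they were tested. ENSBTAG00000027516 was not tested on thinned counts. A required fold of 1.5 (glmTreat) left 1277 genes rising and 986 falling, and 18 and 2 of the top 100. The fit of 23 libraries gave 1701 rising genes and 23 of the top 100, and library totals gave 35 of the top 100. At least 4-fold, 658 rose and 428 fell with no low-count filter, 628 rose with DESeq2, and 175 fell on thinned counts, where fewer genes were tested. Genes with no count in WJ numbered 6 to 15 as each library was left out. With the line scaled by library totals, 560 genes that rose and 435 that fell in WJ rose there, in place of 895 and 747. The difference of ENSBTAG00000010610 between WJ and BUC passed the test without replicate 3 of BUC (edgeR adjusted p = 0.0397), over a range of 0.0397 to 0.294. For the causes of the other moves, the cause was not tested.

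No paired analysis was possible because the titles number the 12-day libraries and the WJ libraries with only 1 number in common. For WJ against BUC a replicate block on the P number, added later, gave 871 genes higher in WJ in the 6 libraries at 50 days, against 970 there with no block and 1427 in the 9 primary libraries. Libraries of the same P number correlated in their deviations by 0.0599, -0.0968 and 0.104. With 1 pair of libraries for each P number, these values cannot tell whether the P number paired them. The depth of the WJ libraries limits what can be said of genes below 0.364 CPM.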
